A study of Mus musculus with 12 samples.

Results

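The genes described are those of the NF-κB transcription factor and of the proteins that hold it in check: the 5 subunit genes Nfkb1, Nfkb2, Rel, Rela and Relb, and the 5 inhibitor genes Nfkbia, Nfkbib, Nfkbie, Nfkbiz and Tnfaip3. They were chosen by symbol, with earlier results of these data known, and all 10 were found among the 45859 genes of each deposited table. RNA came from lens cells (LCs) left on the lens capsule after a mouse model of cataract surgery, in which the fiber cells are taken out through a cut in the cornea. Capsules of adult mice, 2 months old, were harvested at 0 h or 24 h post cataract surgery (PCS), with 3 libraries in each of 4 groups and several capsules pooled in each library. WT mice were C57BL/6. Mice called β8ITG-cKO carried Itgb8 alleles with exon 4 between loxP sites and the MLR10-Cre transgene, which is active in all lens cells from the lens vesicle stage onwards, and were of mixed C57BL/6 and 129S1/Sv background. Genotype and strain background therefore cannot be told apart in these data.

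NF-κB is a family of dimers built from 5 related subunits. In resting cells most dimers are kept in the cytoplasm by inhibitor proteins of the IκB family, and signals from cytokine receptors, pattern receptors or cell injury lead kinases to mark an IκB protein for destruction, so that the dimer enters the nucleus and switches on genes of inflammation and survival. Several of those genes encode NF-κB subunits and inhibitors themselves, which is why their mRNA is commonly read beside that of chemokines. In the lens, surgery is followed within a day by an inflammatory response of the LCs that stay behind.

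Values are FPKM (fragments per kilobase of transcript, scaled to the mapped fragments of the library), which can be compared between genes of a library. Comparison between libraries is less direct, since the summed level and the share held by the highest genes differed between them. Rescaling every library to the same median changed some of the calls, as given below. The summed FPKM of a library was 446531 to 740140, and its 10 highest genes held 36.0% to 49.6% of that sum. Absolute depth is unknown without read counts; steps in the FPKM of low genes put each library at 0.86 to 1.08 times the depth of WT 24 h replicate 1. The lens markers Pax6 (59.9 to 93.5 FPKM over 12 libraries) and Cryab (2967 FPKM or more) were high in every library. Itgb8, measured over all its exons rather than over the deleted one, had 7.26 to 10.8 FPKM in WT 0 h, 4.58 to 7.31 in β8ITG-cKO 0 h, 8.38 to 9.58 in WT 24 h and 9.28 to 11.8 in β8ITG-cKO 24 h libraries, so its level does little to check the labels. WT 0 h replicate 2 stood apart in 12 retinal markers, whose summed level was 1283 FPKM there and 157 and 384 FPKM in the other WT 0 h libraries. In bulk RNA, fewer cells of a type and less RNA per cell cannot be told apart.

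Rela, on chromosome 19 from 5637483 to 5648130 (GRCm38, plus strand), encodes p65, the subunit that carries most of the activating function of the classical pathway. By its mean it was the highest subunit gene in every group. Its values were 19.8, 16.3 and 16.3 FPKM at WT 0 h, 19.3, 24.7 and 19.2 FPKM at WT 24 h, 10.2, 11.9 and 10.04 FPKM at β8ITG-cKO 0 h and 17.5, 16.3 and 17.9 FPKM at β8ITG-cKO 24 h. The β8ITG-cKO 0 h libraries lay below all others, and the other 3 groups overlapped in part.

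Nfkb1 (chromosome 3, 135584655 to 135691547, minus strand) and Nfkb2 (chromosome 19, 46304320 to 46312385, plus strand) encode the precursors p105 and p100, which are cut to the DNA-binding subunits p50 and p52 and which, uncut, can hold other subunits in the cytoplasm. Nfkb1 had 6.63, 4.52 and 7.99 FPKM at WT 0 h, 13.2, 18.1 and 13.2 FPKM at WT 24 h, 4.35, 3.66 and 3.98 FPKM at β8ITG-cKO 0 h, and 9.90, 10.3 and 9.89 FPKM at β8ITG-cKO 24 h. Nfkb2 had 5.15, 2.70 and 6.76 FPKM at WT 0 h, 17.3, 24.5 and 15.5 FPKM at WT 24 h, 2.86, 4.71 and 2.48 FPKM at β8ITG-cKO 0 h, and 14.4, 15.9 and 17.3 FPKM at β8ITG-cKO 24 h. For both genes the 24 h libraries of either genotype all exceeded the 0 h libraries. The end of Nfkb2 overlaps Psd on the opposite strand by 299 bases, and a same-strand predicted gene, Gm43430, lies over 3897 bases of Nfkb1. A long noncoding RNA gene on the opposite strand, AC114539.1, overlaps Nfkb2 by 1292 bases. Psd had 0.994 to 1.74 FPKM in β8ITG-cKO 0 h and 6.83 to 10.02 FPKM in β8ITG-cKO 24 h, and whether counting used strand is not given in the sources used here.

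Relb (chromosome 7, 19606217 to 19629438, minus strand) encodes the partner of p52 in the alternative pathway, and Rel (chromosome 11, 23736847 to 23770970, minus strand) encodes c-Rel, best known from lymphocytes. Relb had 6.44, 4.52 and 7.54 FPKM at WT 0 h and 8.07, 12.3 and 6.66 FPKM at WT 24 h, against 2.496, 1.15 and 1.11 FPKM at β8ITG-cKO 0 h and 8.55, 9.29 and 8.35 FPKM at β8ITG-cKO 24 h. The β8ITG-cKO 0 h libraries thus stood apart below the other 3 groups, which overlapped in part. Rel was the lowest of the 10 genes in every group, clear of the next gene, with 0.783 to 1.74 FPKM at WT 0 h, 1.29 to 2.81 at WT 24 h, 0.431 to 0.558 at β8ITG-cKO 0 h and 1.01 to 1.77 at β8ITG-cKO 24 h. At these levels the pseudocount of 1 FPKM used in the tests shrinks the fold change of Rel.

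Nfkbia (chromosome 12, 55489410 to 55492647, minus strand) encodes IκBα, the inhibitor that is destroyed and remade fastest on stimulation. It had 71.0, 48.6 and 28.6 FPKM at WT 0 h, 47.4, 113.2 and 69.8 FPKM at WT 24 h, 11.4, 7.72 and 8.99 FPKM at β8ITG-cKO 0 h, and 54.6, 57.4 and 47.2 FPKM at β8ITG-cKO 24 h. It was the highest of the 10 genes, clear of Rela, in WT 0 h, WT 24 h and β8ITG-cKO 24 h. In β8ITG-cKO 0 h it overlapped Rela.

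Tnfaip3 (chromosome 10, 19000910 to 19015657, minus strand) encodes A20, a ubiquitin-editing enzyme that shuts off signaling upstream of the IκB kinases. It had 25.6, 18.9 and 6.68 FPKM at WT 0 h, 8.27, 16.1 and 10.8 FPKM at WT 24 h, 3.19, 2.36 and 1.95 FPKM at β8ITG-cKO 0 h, and 14.4, 12.7 and 13.0 FPKM at β8ITG-cKO 24 h. WT 0 h replicate 3 was the lowest WT 0 h library for both Nfkbia and Tnfaip3, yet it stayed above all 3 β8ITG-cKO 0 h libraries for each. The SD of log2(FPKM + 1) of Tnfaip3 was 0.94 in WT 0 h and 0.26 in β8ITG-cKO 0 h, and that of Nfkbia was 0.64 and 0.26.

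Nfkbie (chromosome 17, 45555703 to 45563169, plus strand) and Nfkbib (chromosome 7, 28758251 to 28767512, minus strand) encode the slower inhibitors IκBε and IκBβ. Nfkbie had 7.71, 5.10 and 11.7 FPKM at WT 0 h, 5.38, 6.70 and 5.31 FPKM at WT 24 h, 3.15, 2.17 and 1.83 FPKM at β8ITG-cKO 0 h, and 4.84, 5.55 and 6.01 FPKM at β8ITG-cKO 24 h. Nfkbib had 8.09, 8.02 and 7.09 FPKM at WT 0 h, 9.18, 14.1 and 9.40 FPKM at WT 24 h, 4.91, 5.22 and 4.54 FPKM at β8ITG-cKO 0 h, and 7.52, 7.17 and 10.04 FPKM at β8ITG-cKO 24 h. Both had their lowest 3 libraries in β8ITG-cKO 0 h. Nfkbib overlaps Sirt2 by 778 bases and Ccer2 by 718 bases, both on the opposite strand; Ccer2 had at most 0.466 FPKM in any library, and Sirt2 had 9.40 to 15.4 FPKM.

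Nfkbiz (chromosome 16, 55811375 to 55838899, minus strand) encodes IκBζ, an atypical member that works in the nucleus and can help p50 to activate secondary response genes. It had 6.13, 4.06 and 4.51 FPKM at WT 0 h, 6.999, 12.6 and 10.1 FPKM at WT 24 h, 2.28, 2.43 and 1.65 FPKM at β8ITG-cKO 0 h, and 9.48, 6.66 and 5.85 FPKM at β8ITG-cKO 24 h. The WT groups did not overlap each other, nor did the β8ITG-cKO groups. WT 24 h replicate 2 had the highest value of its group for all 10 genes, and β8ITG-cKO 0 h replicate 3 had the lowest of its group for 8 of them. Over genes with a mean of 2 FPKM or more, that WT library also had the highest median of its group, 8.29 against 7.78 and 7.11. The median of β8ITG-cKO 0 h replicate 3 was 6.59, between the 6.36 and 6.72 of the others in its group.

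**Figure D1:**
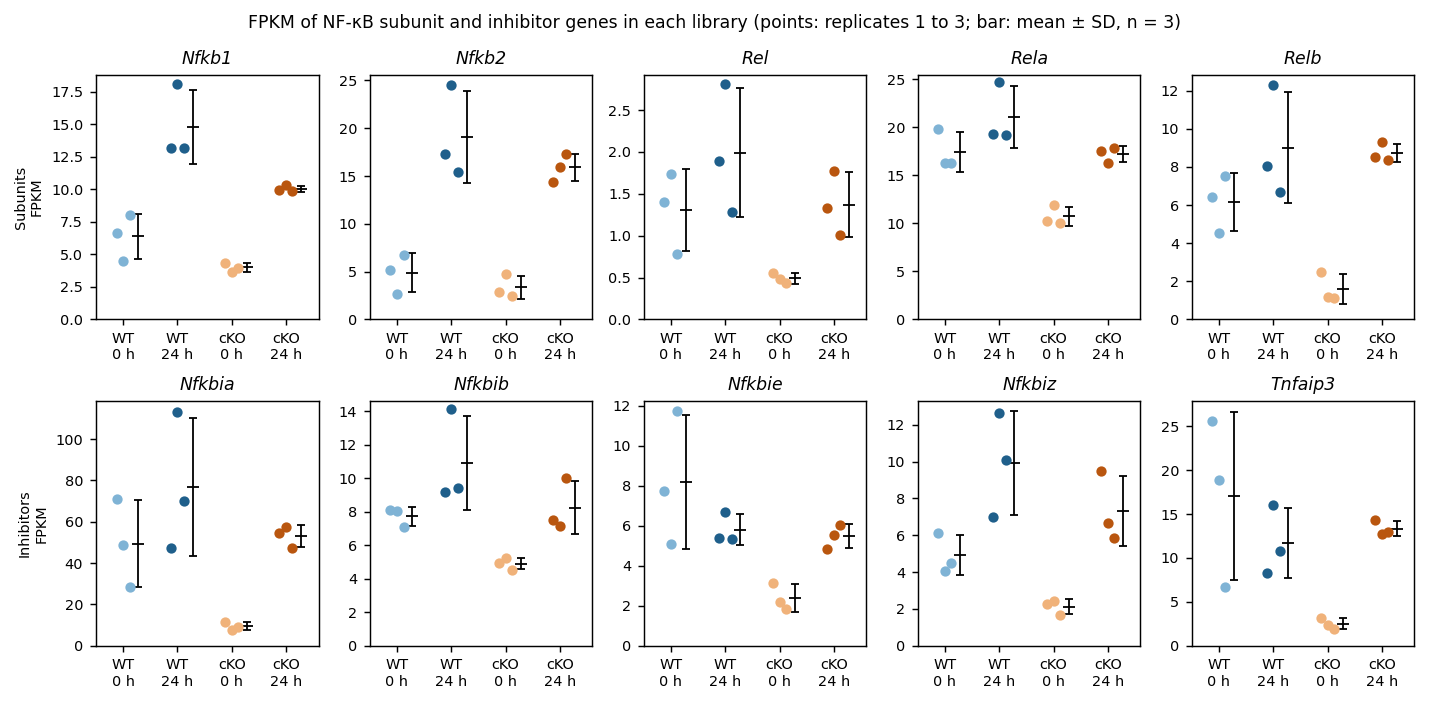
FPKM of each gene (vertical axes, linear from 0, a scale of its own for each gene) in the 12 libraries, by group along the horizontal axis (cKO is β8ITG-cKO). Points are libraries in the order of replicates 1 to 3, and the bar beside them is the mean ± SD of 3; for 9 of the 10 genes all β8ITG-cKO 0 h libraries sit below all WT 0 h libraries, with Nfkb2 the exception.

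The first comparison asks how the genes differed between genotypes at 0 h PCS, when the capsules had just been cleared of fiber cells. All 10 genes had lower estimates in β8ITG-cKO than in WT. Calls required an adjusted p of 0.05 or less (limma-trend on log2(FPKM + 1), Benjamini-Hochberg adjustment over all genes tested), means more than 2-fold and more than 2 FPKM apart, and 2 FPKM or more in 1 group. By that rule 5 of the 10 genes fell, beside 1.18% of the 14708 genes tested, and 0 rose, beside 1.35%. The 5 were Nfkbia, Tnfaip3, Nfkbie, Nfkbiz and Relb. By adjusted p alone the count was 7, with Rela and Nfkbib, beside 2.75% of all genes. The groups did not overlap, with β8ITG-cKO lower, for 9 of the 10 genes, beside 12.8% of all genes. The median log2 difference was -0.78 over the 10 genes and 0.02 over all genes tested.

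Genes listed as inhibitors made up 4 of the 5 calls, with the atypical Nfkbiz among them. Nfkbia had a log2 difference of -2.202 ± 0.30 (SE, adjusted p = 0.00914), and its β8ITG-cKO mean was 0.190 of its WT mean. Tnfaip3 differed by -2.21 ± 0.41 (adjusted p = 0.0249), with a mean of 0.146 of WT. Nfkbie differed by -1.39 ± 0.27 (adjusted p = 0.0266) and Nfkbiz by -0.91 ± 0.17 (adjusted p = 0.0260). The remaining inhibitor, Nfkbib, differed by -0.57 ± 0.11 (adjusted p = 0.0285), at a mean of 0.632 of WT, which is short of 2-fold.

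Among the subunits, Relb fell by the rule, with a difference of -1.49 ± 0.24 (adjusted p = 0.0171) and a mean of 0.257 of WT. Rela differed by -0.65 ± 0.12 (adjusted p = 0.0252) and had a mean of 0.614 of WT. Rel (-0.61 ± 0.19, adjusted p = 0.101) and Nfkb1 (-0.54 ± 0.18, adjusted p = 0.126) did not pass, although their groups did not overlap. Nfkb2 differed by -0.40 ± 0.29 (adjusted p = 0.441), with a 95% interval of -1.08 to 0.28.

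All 10 differences stayed below 0 whichever library was left out, but the calls changed. Leaving out WT 0 h replicate 1 left 1 call, without WT 0 h replicate 2 or replicate 3 there were 4, without β8ITG-cKO 0 h replicate 1 there were 3, without replicate 2 there was 1 and without replicate 3 there were 0, at log2 differences for Nfkbia of -2.54 to -1.90 and an adjusted p of at most 0.0510. With no filter on low values 0 of the 10 genes were called among 28281 tested, at the same differences and adjusted p of 0.0565 for Nfkbia to 0.0977 for Nfkbie. For Tnfaip3 leaving out a library gave -2.73 to -1.84 with adjusted p up to 0.0977. The call lost without WT 0 h replicate 2, the library with high retinal markers, was that of Tnfaip3 (adjusted p = 0.056), and Nfkb1 then passed by adjusted p alone (0.0344).

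Markers of other cells also differed at 0 h. The 5 red blood cell genes summed to 6.52 to 15.8 FPKM in β8ITG-cKO 0 h and 68.0 to 153 FPKM in WT 0 h, with 4 of 5 called lower, and the corneal epithelium list of 6 genes in the tables summed to 539 to 921 FPKM and 213 to 271 FPKM, with 1 of 3 tested called higher, while its defining keratin Krt12 stayed at or below 1.27 FPKM. Summed levels of 3 more lists did not overlap. Lens fiber cells had 6639 to 7511 FPKM in β8ITG-cKO and 4490 to 6542 in WT, with 1 of 9 called higher. Corneal stroma had 1163 to 1438 and 685 to 929 FPKM, with 1 of 3 tested called higher and 1 lower. Of its 5 genes, Kera and Lum stayed below 0.05 FPKM in all 3 β8ITG-cKO 0 h libraries, and Aldh3a1 is also in the corneal epithelium list. Iris and ciliary pigment cells had 31.5 to 35.5 and 36.5 to 106.5 FPKM, with 0 of 6 called. The summed level of the macrophage and leukocyte list was 9.69 to 17.1 FPKM in β8ITG-cKO 0 h and 9.44 to 17.1 FPKM in WT 0 h. The 10 neutrophil genes, of which 0 passed the filter, summed to 0.459 to 1.41 FPKM in β8ITG-cKO 0 h and 0.511 to 0.795 FPKM in WT 0 h. Of them, S100a8, Ly6g, Mpo, Elane and Ngp were listed at 0 in all libraries of both groups. The part of any of these lists in the result was not tested.

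**Figure D2:**
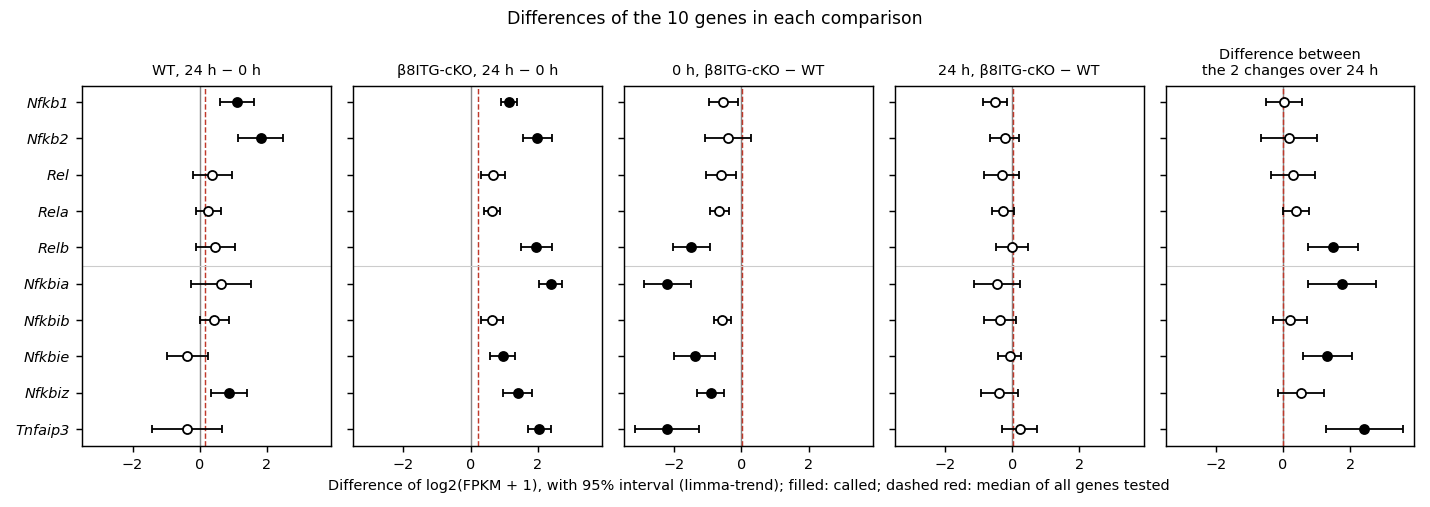
Differences of log2(FPKM + 1) with 95% intervals (horizontal axes) for the 10 genes (rows) in the 4 comparisons and in the difference between the changes over 24 h. Filled points are called, the red dashed line is the median of all genes tested, and the grey line parts subunits from inhibitors. The third panel has all 10 points below 0, the second all 10 above it, and the fourth no filled point.

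The next comparison asks how the genes changed over the first 24 h PCS. In WT, 3 of the 10 genes rose, beside 10.3% of the 15146 genes tested that were called higher, and 0 fell, beside 3.92%. The WT groups did not overlap for 4 genes, with Nfkbib the fourth, beside 31.3% of all genes. Nfkb2 rose by a log2 difference of 1.81 ± 0.29 (limma-trend, adjusted p = 0.00401), Nfkb1 by 1.11 ± 0.22 (adjusted p = 0.00861) and Nfkbiz by 0.87 ± 0.23 (adjusted p = 0.0262). Nfkbiz lost its call without WT 0 h replicate 2 or replicate 3 and without WT 24 h replicate 2 or replicate 3, with adjusted p of up to 0.0811. The other 7 genes did not pass. Rela differed by 0.25 ± 0.16, Rel by 0.37 ± 0.25, Relb by 0.46 ± 0.25, Nfkbib by 0.42 ± 0.19 and Nfkbia by 0.63 ± 0.39. Nfkbie (-0.37 ± 0.26) and Tnfaip3 (-0.38 ± 0.45) had estimates below 0. The adjusted p of these 7 genes ran from 0.121 for Nfkbib to 0.550 for Tnfaip3.

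The median of all genes tested moved by 0.16 in this comparison, so the median of 0.44 over the 10 genes should be read against it. With FPKM rescaled to the same median in each library, the split of all calls went from 72.5% higher to 50.5% higher, the shift became -0.05, and of the 3 genes only Nfkb2 stayed called, at 1 of 10. Nfkb1 kept an adjusted p of at most 0.05 in all 13 alternatives, with log2 differences of 0.80 to 1.27, and fell short of the fold rule after rescaling.

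In β8ITG-cKO, 7 of the 10 genes rose over 24 h, beside 11.3% of the 15237 genes tested, and 0 fell, beside 3.77%. By adjusted p alone all 10 were higher, beside 35.4% of all genes, and for all 10 the groups did not overlap, beside 42.9% of all genes. The median log2 difference was 1.27 over the 10 genes and 0.23 over all genes tested.

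Nfkbia rose by 2.39 ± 0.15 on the log2 scale (limma-trend, adjusted p = 2.69e-05), from a mean of 9.39 ± 1.89 to 53.0 ± 5.26 FPKM (SD, n = 3). Tnfaip3 rose by 2.05 ± 0.14 (adjusted p = 4.39e-05), from 2.498 ± 0.635 to 13.4 ± 0.880 FPKM. These are the fast negative regulators of the pathway. Nfkbiz rose by 1.40 ± 0.18 and Nfkbie by 0.95 ± 0.16, with adjusted p of 0.00071 and 0.0025.

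Of the subunits, Nfkb2 rose by 1.99 ± 0.19, Relb by 1.95 ± 0.20 and Nfkb1 by 1.14 ± 0.10, all with an adjusted p of 0.000218 or less. Relb and Nfkb2 are the subunit genes of the alternative pathway. Rela (0.64 ± 0.10, adjusted p = 0.00162), Nfkbib (0.64 ± 0.14, adjusted p = 0.00697) and Rel (0.66 ± 0.16, adjusted p = 0.0105) were higher by adjusted p and missed the rule on size. The count stayed at 7 with each of the 6 libraries left out in turn and was 6 after rescaling, which also moved the split of all calls from 74.9% to 57.2% higher.

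Markers of other cell types moved in the same comparisons. The macrophage and leukocyte list summed to 9.44 to 17.1 FPKM at WT 0 h and 56.5 to 83.3 FPKM at WT 24 h, with 7 of 10 tested called higher, and to 9.69 to 17.1 and 49.4 to 77.6 FPKM in β8ITG-cKO, with 6 of 11 called higher. The neutrophil list went from at most 0.795 to 45.5 to 64.5 FPKM in WT and from at most 1.41 to 11.99 to 34.8 FPKM in β8ITG-cKO, with Ly6g, Mpo and Elane listed at 0 in all 12 libraries. Of 12 retinal markers, 0 were called higher and 1 lower in WT, and 11 were called higher in β8ITG-cKO, with sums of 203 to 369 FPKM at 0 h and 947 to 1110 FPKM at 24 h, and 4 of 5 red blood cell genes were called higher. Lens fiber markers were called lower in both genotypes, 8 of 8 tested in each. The lens epithelium list went from 10203 to 13512 FPKM at WT 0 h to 4276 to 5476 FPKM at WT 24 h, with 2 of 5 tested called lower. In β8ITG-cKO it went from 12666 to 14787 FPKM to 3189 to 4063 FPKM, with 3 of 5 called lower. By the levels given above, Cryab held most of each 24 h sum, and Pax6, of the same list, varied far less over the libraries. These sums therefore do not measure the share of lens epithelial cells. The corneal epithelium list in β8ITG-cKO went from 539 to 921 FPKM to 140 to 192 FPKM, with 2 of 2 tested called lower. The iris and ciliary pigment list had 1 of 6 called lower in each genotype, with sums that did not overlap, and the vascular endothelium list in β8ITG-cKO went from 0.994 to 1.70 FPKM to 5.47 to 7.38 FPKM, with 1 of 3 called higher. Their part in the changes of the 10 genes was not tested.

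**Figure D3:**
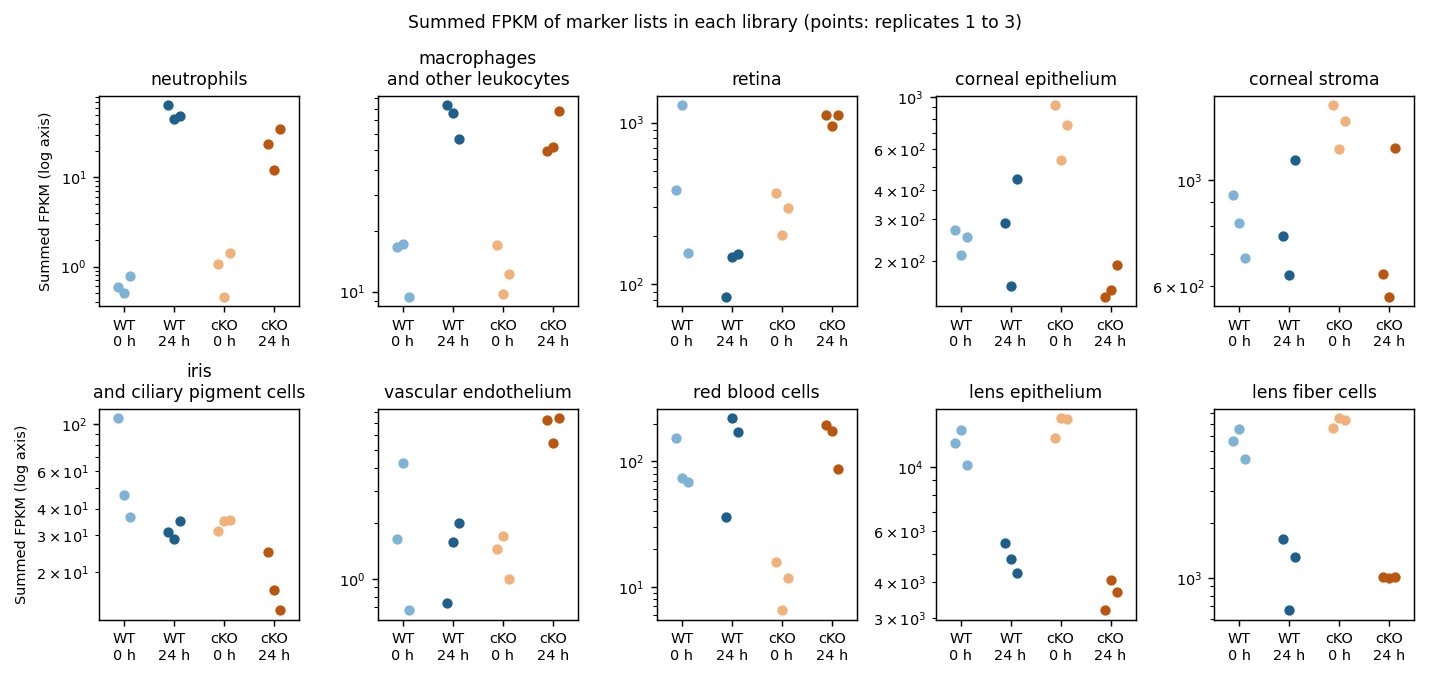
Summed FPKM of each marker list (vertical axes, log scale) in the 12 libraries by group (cKO is β8ITG-cKO); points are replicates 1 to 3. Leukocyte lists are higher at 24 h in both genotypes, the retinal list is highest in β8ITG-cKO 24 h and in WT 0 h replicate 2, and the red blood cell list is lowest in β8ITG-cKO 0 h.

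At 24 h PCS no gene of the 10 was called between genotypes, in either direction, beside 3.37% of the 15366 genes tested called higher in β8ITG-cKO and 0.286% called lower. At an unadjusted p under 0.05 in the limma-trend fit there was 1, Nfkb1, with a difference of -0.50 ± 0.15 (adjusted p = 0.111). Rescaling brought its adjusted p to 0.0427. Rela differed by -0.27 ± 0.14, with a 95% interval of -0.60 to 0.06. Of the 10 genes, 9 had estimates below 0, with Tnfaip3 the exception. The median log2 difference was -0.29 over the 10 genes and 0.03 over all genes tested.

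For the 5 genes that were lower at 0 h, the intervals at 24 h were wide. Relb differed by 0.00 within its rounding, with an interval of -0.49 to 0.48, Nfkbie by -0.07 (-0.41 to 0.27) and Tnfaip3 by 0.22 (-0.29 to 0.74). Nfkbia differed by -0.44 (-1.12 to 0.24) and Nfkbiz by -0.38 (-0.94 to 0.18). These intervals do not reach the 0 h estimate of the same gene for any of the 5 but Nfkbiz. All 5 intervals include 0 and leave room for differences in both directions. Retinal markers again stood apart, with 11 of 12 called higher in β8ITG-cKO, whereas the macrophage list had 0 of 11 called and the neutrophil list 0 of 5, although the summed neutrophil levels of the groups did not overlap. Nor did those of lens epithelium (3189 to 4063 FPKM in β8ITG-cKO and 4276 to 5476 in WT, 0 of 5 called), iris and ciliary pigment cells (13.3 to 24.9 and 28.7 to 34.8, 1 of 5 called lower) and vascular endothelium (5.47 to 7.38 and 0.74 to 2.02, 1 of 3 called higher). As over time, the lens epithelium sum was led by Cryab. The part of these lists in the 24 h values was not tested.

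Whether the change over 24 h differed between genotypes was tested with an interaction term, fitted over all 12 libraries together. The change was larger in β8ITG-cKO for 4 of the 10 genes at an adjusted p of at most 0.05, beside 6.83% of the 15262 genes tested, and smaller for 0, beside 2.56%. Tnfaip3 had the largest difference between the changes, 2.43 ± 0.53 (limma-trend, adjusted p = 0.0168), followed by Nfkbia at 1.76 ± 0.46 (adjusted p = 0.0362), Relb at 1.49 ± 0.34 (adjusted p = 0.0219) and Nfkbie at 1.32 ± 0.33 (adjusted p = 0.0298). For these genes the 0 h levels differed and the 24 h levels were not separated by the test.

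Nfkb1 and Nfkb2, the 2 genes that rose most in WT, had interaction estimates of 0.03 ± 0.25 and 0.17 ± 0.38, with 95% intervals of -0.51 to 0.57 and -0.65 to 1.001. Rela (0.39 ± 0.18, adjusted p = 0.217), Nfkbiz (0.53 ± 0.31, adjusted p = 0.335), Rel and Nfkbib did not pass either. Of the 4 calls, that of Tnfaip3 held with every library left out, at an adjusted p of at most 0.0460, while the count fell to 3 without WT 0 h replicate 2 or β8ITG-cKO 24 h replicate 1, to 2 on leaving out WT 0 h replicate 1, WT 24 h replicate 1 or β8ITG-cKO 24 h replicate 3, and to 1 without β8ITG-cKO 0 h replicate 2, β8ITG-cKO 0 h replicate 3 or β8ITG-cKO 24 h replicate 2.

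A ratio within a library does not depend on the scaling of that library. Rela, the base used here, was itself lower in β8ITG-cKO 0 h, at a mean of 0.614 of WT. It also rose over 24 h in β8ITG-cKO, by a log2 difference of 0.64, so each ratio mixes the change of Rela with that of the other gene. Nfkbia had 1.76 to 3.58 times the FPKM of Rela in WT 0 h, 2.46 to 4.58 in WT 24 h, 0.65 to 1.1 in β8ITG-cKO 0 h and 2.64 to 3.52 in β8ITG-cKO 24 h. The β8ITG-cKO 0 h libraries had the lowest 3 of the 12 ratios. The same held for Relb, at 0.097 to 0.244 of Rela in β8ITG-cKO 0 h and 0.278 to 0.464 in WT 0 h, and for Tnfaip3, at 0.194 to 0.312 and 0.411 to 1.29.

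Nfkb2 followed time and not genotype in its ratio to Rela, with 0.166 to 0.416 in WT 0 h and 0.247 to 0.397 in β8ITG-cKO 0 h against 0.805 to 0.990 in WT 24 h and 0.822 to 0.977 in β8ITG-cKO 24 h. Nfkb1 per Rela was 0.278 to 0.491 and 0.308 to 0.426 at 0 h, and 0.683 to 0.731 and 0.553 to 0.631 at 24 h. The summed FPKM of the 5 inhibitors was 1.49 to 3.002 times that of the 5 subunits in WT 0 h, 1.29 to 1.98 in WT 24 h, 0.91 to 1.22 in β8ITG-cKO 0 h and 1.51 to 1.76 in β8ITG-cKO 24 h. These sums are led by Nfkbia and Rela.

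**Figure D4:**
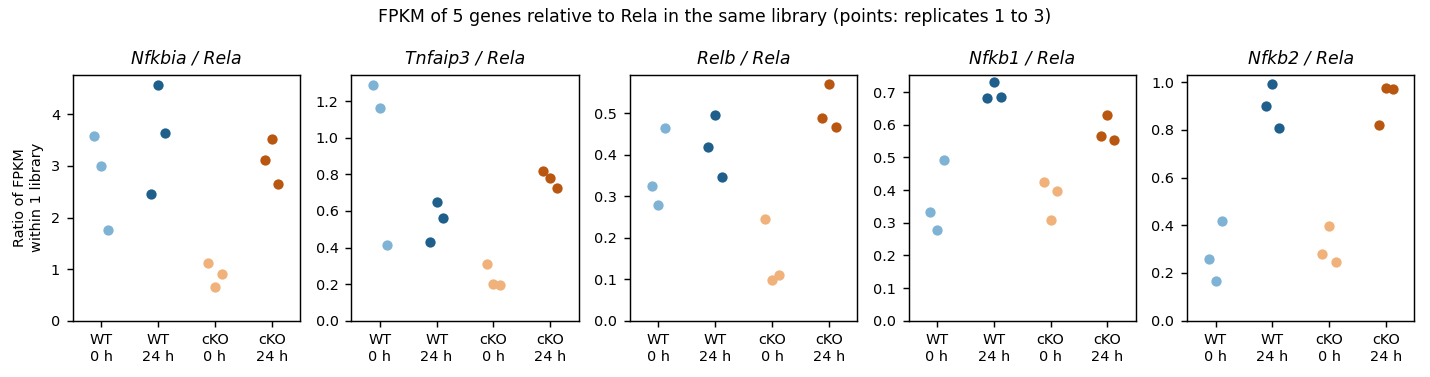
FPKM of Nfkbia, Tnfaip3, Relb, Nfkb1 and Nfkb2 divided by that of Rela in the same library (vertical axes, linear from 0) by group (cKO is β8ITG-cKO); points are replicates 1 to 3. Nfkbia, Tnfaip3 and Relb have their lowest ratios in β8ITG-cKO 0 h, and Nfkb1 and Nfkb2 are higher in both 24 h groups.

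The other genes of the pathway were read as 4 lists, also chosen with earlier results of these data known. Of 23 receptors and ligands that signal to NF-κB, 12 were tested at 0 h and 2 were called lower in β8ITG-cKO, 0 higher, beside 1.18% of all genes called lower and 1.35% higher. Tlr2, a receptor of bacterial lipoproteins, had 15.9, 9.09 and 14.7 FPKM in WT 0 h and 1.62, 2.37 and 2.49 FPKM in β8ITG-cKO 0 h, and differed by -2.15 ± 0.22 (limma-trend, adjusted p = 0.00303). Tnfrsf12a, the receptor of the cytokine TWEAK, had 23.3, 15.3 and 21.2 FPKM in WT 0 h and 3.66, 8.43 and 9.57 FPKM in β8ITG-cKO 0 h (-1.41 ± 0.31, adjusted p = 0.0356). Tlr2 kept an adjusted p of at most 0.05 in 6 of 6 omissions of a library and Tnfrsf12a in 2 of 6, those of WT 0 h replicate 2 and β8ITG-cKO 0 h replicate 1.

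Of 21 adaptors and kinases upstream of the inhibitors, 20 were tested and 1 was called lower, Map3k8, the kinase that uncut p105 keeps inactive, at 2.98 ± 0.860 FPKM in WT and 0.747 ± 0.238 in β8ITG-cKO (SD, n = 3, adjusted p = 0.0203), beside 1.18% of all genes. Map3k8 kept an adjusted p of at most 0.05 in 2 of 6 omissions, of the same 2 libraries, and the count of this list was 0 to 2 with a library left out. Of 22 other regulators, 17 were tested and 0 were called, with 1 higher and 1 lower by adjusted p alone. The medians of the 3 lists were -0.32, -0.02 and -0.15, beside 0.02 over all genes.

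Of 28 genes that NF-κB is known to induce, 19 were tested at 0 h, 7 were called lower in β8ITG-cKO and 0 higher, beside 1.18% and 1.35% of all genes, with a median of -1.07. Ccl2, the chemokine that draws monocytes, had 309.7, 189 and 105 FPKM in WT 0 h and 3.18, 6.87 and 3.73 FPKM in β8ITG-cKO 0 h, and differed by -5.10 ± 0.39 (adjusted p = 0.000905). Its neighbour in function Ccl7 differed by -3.38 ± 0.53, the interferon-inducible Cxcl10 by -2.67 ± 0.38 and the neutrophil chemokine Cxcl2 by -1.60 ± 0.32, with adjusted p of 0.0151, 0.0106 and 0.0292. Cxcl10 and Cxcl2 were listed at 0 in 2 and 1 of the β8ITG-cKO 0 h libraries, so the sizes of their differences depend on the pseudocount. With a library left out, Ccl2 kept an adjusted p of at most 0.05 in 6 of 6 fits, Cxcl10 in 5, Ccl7 in 4 and Cxcl2 in 2. Over the alternatives the number called in this list ran from 1 to 10.

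At 24 h the 4 lists had 0 of 19, 0 of 21, 0 of 21 and 1 of 26 genes called between genotypes, beside 0.286% of all genes called lower and 3.37% higher. The 1 was Cxcl5, a neutrophil chemokine, with 22.04, 37.0 and 31.1 FPKM in WT 24 h and 14.9, 5.62 and 3.69 FPKM in β8ITG-cKO 24 h (-1.94 ± 0.43, adjusted p = 0.0401). It lost the call in 5 of the 6 omissions of a library. Ccl2 had 205, 281 and 236 FPKM in WT 24 h and 183, 177 and 236 FPKM in β8ITG-cKO 24 h, and the groups overlapped.

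**Figure D5:**
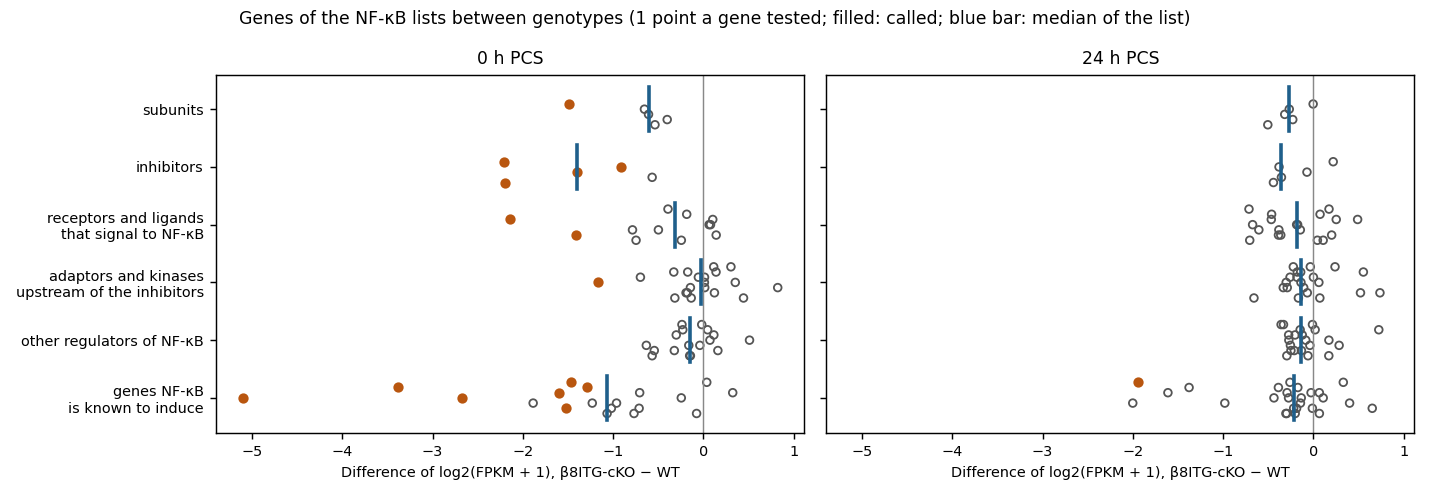
Difference of log2(FPKM + 1) between genotypes (horizontal axes, the same in both panels; below 0 is lower in β8ITG-cKO) for each gene tested of the 6 lists (rows), at 0 h and 24 h PCS. Filled points are called and the blue bar is the median of a list. At 0 h the inhibitors and the induced genes have medians of -1.39 and -1.07, and at 24 h -0.35 and -0.21.

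Over 24 h the induced genes were called higher for 14 of 26 tested in WT, with 1 lower, and for 20 of 24 in β8ITG-cKO, beside 10.3% and 11.3% of all genes called higher. Lcn2, the iron-binding lipocalin of acute inflammation, rose in both, by 6.94 ± 0.51 in WT (adjusted p = 0.000212) and by 7.78 ± 0.38 in β8ITG-cKO (adjusted p = 9.80e-06), to 1214 to 4110 FPKM and 795 to 2413 FPKM. In WT the chemokines Ccl5 (5.05 ± 0.29) and Cxcl5 (4.57 ± 0.20) and the cytokine Csf3 (4.56 ± 0.53) followed, and in β8ITG-cKO Ccl2 (5.202 ± 0.24), the complement gene C3 (5.09 ± 0.43) and Cxcl1 (4.30 ± 0.43), all with an adjusted p of 0.00126 or less. Of these 6 genes, 5 were called higher in both genotypes, and Ccl2 differed by 0.38 ± 0.36 in WT (adjusted p = 0.460). The medians of the list were 1.48 in WT and 2.73 in β8ITG-cKO, beside 0.16 and 0.23 over all genes.

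Receptors and ligands were called higher for 8 of 16 in WT, with 1 lower, and for 8 of 17 in β8ITG-cKO, beside the same 10.3% and 11.3% of all genes. Il1rn, the antagonist of the IL-1 receptor, was listed at 0 in 5 of the 6 libraries at 0 h and had 11.5, 23.6 and 11.2 FPKM in WT 24 h and 9.66, 8.69 and 12.9 FPKM in β8ITG-cKO 24 h. Il1b rose by 2.40 ± 0.57 and 2.37 ± 0.31 and Il33, an alarmin of epithelia, by 2.05 ± 0.37 and 2.12 ± 0.29 in WT and β8ITG-cKO, with adjusted p of 0.0172 and 0.00065 for Il1b and 0.00659 and 0.000816 for Il33. Tnfrsf1b, the second TNF receptor, rose in both, by 1.96 ± 0.18 in WT (adjusted p = 0.000512) and 1.69 ± 0.20 in β8ITG-cKO (adjusted p = 0.000441). Tnfrsf12a also rose in both, by 1.91 ± 0.26 (adjusted p = 0.00222) and 2.97 ± 0.28 (adjusted p = 0.000165).

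Among adaptors and kinases, 5 of 21 were called higher in WT and 2 of 21 in β8ITG-cKO, beside 10.3% and 11.3% of all genes, and the count in β8ITG-cKO was near the share of all genes. Myd88, the adaptor of IL-1 and Toll-like receptors, rose by 1.25 ± 0.26 and 1.69 ± 0.21 (adjusted p = 0.0103 and 0.000545). Map3k14, the kinase NIK that starts the processing of p100, rose by 0.99 ± 0.23 and 0.80 ± 0.11 (adjusted p = 0.0156 and 0.000822). Irak4 (1.47 ± 0.19) and Tradd (1.20 ± 0.23), which act directly under IL-1 and TNF receptors, rose in WT, with adjusted p of 0.00194 and 0.00842, and differed by 0.36 ± 0.17 and 0.04 ± 0.18 in β8ITG-cKO, with adjusted p of 0.124 and 0.865.

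Other regulators were called higher for 5 of 21 in WT and 4 of 19 in β8ITG-cKO, again beside 10.3% and 11.3%. Bcl3, an atypical IκB protein that binds p50 and p52 in the nucleus, had 0.199 to 1.56 FPKM in WT 0 h and 12.4 to 17.8 in WT 24 h, and 0.144 to 0.372 FPKM in β8ITG-cKO 0 h and 9.33 to 12.9 in β8ITG-cKO 24 h. It rose by 3.07 ± 0.29 and 3.34 ± 0.15 (adjusted p = 0.000539 and 8.38e-06). Tnip1, which works with A20, rose by 1.31 ± 0.18 and 1.65 ± 0.13, and the RNase gene Zc3h12a by 1.61 ± 0.27 and 1.39 ± 0.18, all with an adjusted p of 0.00501 or less. Ikbke rose in WT (1.18 ± 0.26, adjusted p = 0.0132) and was higher by adjusted p in β8ITG-cKO (1.30 ± 0.23, adjusted p = 0.00299), where its means of 0.274 and 2.21 FPKM missed only the rule on a gap of 2 FPKM. Tnip2 rose in β8ITG-cKO (1.77 ± 0.13, adjusted p = 4.56e-05) and differed by 0.41 ± 0.17 in WT (adjusted p = 0.114).

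The 300 bases around the transcription start, 250 before it and 50 after, were read from RefSeq for GRCm38.p6 for 7 of the 10 genes. The genes Nfkb1, Relb and Nfkbiz had no entry in the table used. The κB consensus, the 10 base motif that NF-κB dimers bind, was searched on both strands. It was found in 5 of the 7 genes, Nfkbia, Nfkbie, Tnfaip3, Rel and Nfkb2, beside 5.14% of the 27025 genes with a window and 10 of 19 genes of the induced list. Rela and Nfkbib had no match in these windows. Windows with a match are shown on the gene's own strand, 5′ to 3′, so that the matches can be compared, with matches on either strand in capitals and overlapping ones merged.
Nfkbia, chr12:55492648-55492777, minus strand, bases -130 to -1: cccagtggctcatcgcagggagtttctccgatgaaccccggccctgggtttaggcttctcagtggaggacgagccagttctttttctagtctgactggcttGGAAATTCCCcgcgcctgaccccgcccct
Tnfaip3, chr10:19015411-19015540, minus strand, bases -130 to -1: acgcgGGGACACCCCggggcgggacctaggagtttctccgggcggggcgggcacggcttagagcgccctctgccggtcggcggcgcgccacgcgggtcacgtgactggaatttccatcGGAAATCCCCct
Nfkbie, chr17:45555570-45555699, plus strand, bases -130 to -1: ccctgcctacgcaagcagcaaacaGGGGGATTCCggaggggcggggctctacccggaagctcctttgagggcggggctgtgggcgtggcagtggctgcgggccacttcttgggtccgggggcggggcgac
Rel, chr11:23771047-23771066, minus strand, bases -97 to -78: gcagcGGGAAATCCCCcccc
Nfkb2, chr19:46304693-46304712, plus strand, bases -44 to -25: gtcacGGGAATTCCCCccct
Nfkb2, chr19:46304721-46304740, plus strand, bases -16 to 4: cgaaaGGGGCTTTCCcggct
Nfkb2, chr19:46305454-46305473, plus strand, bases -241 to -222 of another start: cggcaGGAATGTCCCcacaa
Nfkb2, chr19:46305700-46305719, plus strand, bases 6 to 25 of that other start: ttttcGGGACTTTCCtaagc

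Counted to its first base on the gene's strand, the match lies at -29 in Nfkbia and at -12 in Tnfaip3, both reading on the opposite strand, and Tnfaip3 has another at -125. That of Nfkbie begins at -106 and that of Rel at -92, and the first start of Nfkb2 has matches at -39 and -11. The other start of Nfkb2 shown has matches at -236 and 11, and the latter is also within the window of a further start, at -225. A match is a stretch of letters and not a measured binding site. Genes with a match were found among those called lower in β8ITG-cKO at 0 h (Nfkbia, Tnfaip3, Nfkbie) and among those not called there (Rel, Nfkb2). The 2 genes without a match, Rela and Nfkbib, were not called between genotypes. At 0 h, however, they passed by adjusted p alone (0.0252 and 0.0285, limma-trend) and missed only the 2-fold rule. Relb and Nfkbiz, also called lower at 0 h, had no window to search.

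Each gene was also compared with the other genes whose mean reached 2 FPKM, by the Pearson correlation of log2(FPKM + 1) over the 12 libraries, which share their groups and depth. Nfkbia was most like Zfp36 (r = 0.985), Bhlhe40 (r = 0.985) and Egr1 (r = 0.978). Zfp36, which encodes an mRNA decay factor of the immediate early response, had 9.30 to 31.8 FPKM in WT 0 h and 1.24 to 1.75 FPKM in β8ITG-cKO 0 h. Tnfaip3 was most like Adamts1, Ifrd1 and Irf1 (r = 0.97, 0.96 and 0.96), Relb like Rnf19b, Pawr and Net1 (r = 0.973, 0.963 and 0.953), and Nfkbie like Ccdc71l, Senp2 and Stard13 (r = 0.946, 0.926 and 0.909).

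Nfkb1 was most like Spcs3, Aim1 and Flnc (r = 0.983, 0.981 and 0.981), Nfkb2 like Prpf31, Uck2 and Tcf7 (r = 0.982, 0.981 and 0.978) and Nfkbiz like Spred2, Pxdc1 and Birc3 (r = 0.973, 0.972 and 0.969). Rela was nearest to Gadd45g, Fosl2 and Sqstm1 (r = 0.965, 0.962 and 0.961), Rel to Kcmf1, Rnps1 and Dcun1d5 (r = 0.962, 0.957 and 0.947) and Nfkbib to Fbxw11, Seh1l and Fam133b (r = 0.962, 0.958 and 0.953). With group means taken out, the libraries of a group still varied together for some pairs of the 10 genes. The highest correlations of these deviations over 12 libraries were 0.91 for Nfkbia and Tnfaip3, 0.86 for Nfkb1 and Nfkbie, 0.84 for Nfkb1 and Relb and 0.81 for Relb and Nfkbie. The lowest was -0.36, for Nfkbie and Tnfaip3.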

How the data were processed

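The authors made stranded total RNA libraries from low input and deposited FPKM per library and gene, which they took from Cuffdiff 2.2.1 after cutadapt 1.12 and TopHat2 2.1.0, with mm10 (GRCm38.p5) per the submitters' processing notes. The 4 deposited tables each hold a pair of groups; a library's values did not differ between the 2 tables that list it. The authors' fold changes, p-values and q values were not used, nor were 16 columns of group values.

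For each comparison, genes whose mean reached 0.5 FPKM entered a limma-trend fit (limma 3.58.1, R 4.3.3, two-sided) of log2(FPKM + 1), and p-values were adjusted by Benjamini-Hochberg over all genes tested; the fold and level criteria of a call are those of the study. A difference is on that log2 scale, which understates the change of low genes. All 10 genes passed the filter in each comparison. The fit was tested on simulated data. Libraries of a group are biological replicates per the study's methods, with capsules pooled in each. Named genes are the 10 members, up to 4 called genes of each list and comparison with the largest differences, and the 3 genes most like each member. Gene lists came from general knowledge. Members and lists were chosen with earlier results of these data known. Alternatives covered the pseudocount, the filter, rescaling, adjusted p alone, 1 fit over 12 libraries, a replicate block and each library left out. Positions are of GENCODE M21. Summaries used pandas 2.3.3 under Python 3.11.15, and figures matplotlib 3.10.9.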

Additional observations from a re-analysis of the deposited data

Results flagged for a closer look

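The change over 24 h differed between genotypes, by the interaction test in limma-trend over 12 libraries, for 4 of the NF-κB genes. It was larger in β8ITG-cKO by 2.43 for Tnfaip3, 1.76 for Nfkbia, 1.49 for Relb and 1.32 for Nfkbie on the log2 scale. An adjusted p of at most 0.05 was kept in 18 of 18 alternatives by Tnfaip3, 14 by Relb, 10 by Nfkbie and 7 by Nfkbia. Each of the 4 had its lowest 3 libraries in β8ITG-cKO 0 h, but this did not set them apart. It held for every other NF-κB gene described except Nfkb2, also for Nfkb1, whose interaction estimate was 0.03.

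Over the full lists, the same test called 1 of 17 receptors and ligands, positive, and 2 of 21 adaptors and kinases, negative. Of 21 other regulators 1 was positive and 1 negative, and of 25 induced genes 6 were positive and 1 negative. Beside them, 6.83% of all genes tested were positive and 2.56% negative. Among the pathway genes named above, themselves picked by their differences in these data, 8 passed that test. Ccl2 (4.83), Ccl7 (3.21), Cxcl10 (2.64), Tlr2 (1.54) and Tnip2 (1.36) changed more in the positive direction in β8ITG-cKO. Ccl5 (-1.94), Tradd (-1.16) and Irak4 (-1.10) had a smaller change there than in WT. Ccl2, Ccl7, Cxcl10 and Tnip2 kept an adjusted p of at most 0.05 in all 18 alternatives, Tlr2 in 14 of 18, Irak4 in 15 of 17, Tradd in 9 of 18 and Ccl5 in 5 of 18.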

How the results depend on the processing

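Of 695 recomputed differences of the 10 genes, 611 kept direction and side of the threshold, 68 lost an adjusted p of at most 0.05, 3 gained it and 13 changed sign, all in differences far from the threshold. With a library left out, those that changed sign ran from -0.17 to 0.22 for Relb and from -0.13 to 0.023 for Nfkbie between genotypes at 24 h, and from -0.12 to 0.23 for Nfkb1 and from -0.061 to 0.47 for Nfkb2 in the interaction. Relb was also 0.0017 with a pseudocount of 0.1, and Nfkb1 -0.061 with a pseudocount of 5. With no filter on low values, 28281 genes were tested between genotypes at 0 h and 0 of the 10 genes were called, at adjusted p of 0.0565 to 0.0977 for the 5 genes and unchanged differences, and 1 was called in the interaction, Tnfaip3. Rescaling left 1 called in WT over time and moved the split of all interaction calls from 72.8% to 62.8% positive. With a library left out, the counts were 2 to 3 in WT over time, 7 in β8ITG-cKO over time, 0 to 4 between genotypes at 0 h, 0 at 24 h and 1 to 4 in the interaction. Of 633 recomputed differences of the named pathway genes, 571 kept an adjusted p of at most 0.05 and 62 lost it, with no change of sign. With 3 libraries a group and unknown depth, differences smaller than the intervals given cannot be read.

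Same-numbered libraries did not deviate together, with correlations of -0.22 to 0.082 of their deviations from group means, so the replicate numbers were taken as names only. With the replicate number as a block, 2 genes were called in WT over time, 7 in β8ITG-cKO over time, 3 between genotypes at 0 h (Relb, Nfkbia and Tnfaip3), 0 at 24 h and 2 in the interaction (Relb and Tnfaip3).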
